A study of Homo sapiens with 6 samples.

Results

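The genes described here are 32 genes of cholesterol and fatty acid synthesis and of cholesterol efflux, chosen by name and not by their measured values, out of 30017 genes in the count table and 14758 with enough counts to be tested. They comprise 18 sterol synthesis enzymes, 6 enzymes of fatty acid synthesis, elongation and desaturation, 4 genes around the SREBP transcription factors and 4 genes of cholesterol efflux by the liver X receptor (LXR). All 32 were tested, with 39 to 10770 counts per library. The cells were a CTCF-mAID subclone of BLaER1, a human leukemia B cell line that converts into macrophages on induction of an exogenous CEBPA. Every library carries this genotype, in which the CTCF protein is fused to an auxin-inducible degron and is degraded on addition of the auxin indole-3-acetic acid (IAA). RNA-seq was performed on 2 biological replicates in each of 3 groups, 6 libraries in all: untreated cells at 0 h, cells at 96 h of transdifferentiation with 17β-estradiol, IL-3 and CSF-1 (control), and cells at 96 h with the same factors and IAA (CTCF-depleted). The degron acts on protein, so that CTCF transcript counts do not check the depletion. The subclone is 1 clone, IAA without the factors was not among the groups, and the cells grew in medium with fetal bovine serum, which supplies lipid. The study's methods describe a medium exchange midway for IAA-treated cells and do not state one for the controls, and the effects of IAA, medium exchange and CTCF loss cannot be told apart here.

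Animal cells make cholesterol from acetyl-CoA through the mevalonate pathway, in which early enzymes build isoprenoids, squalene is formed and cyclised to lanosterol, and later enzymes trim lanosterol to cholesterol. The SREBP transcription factors, encoded by SREBF1 and SREBF2, turn on most of these enzymes together with fatty acid synthesis when membrane sterol is low, and INSIG1 holds the SREBP complex in the endoplasmic reticulum when sterol is high. For cholesterol, LXR works in the opposite direction. It is activated by oxysterols and turns on the efflux pumps ABCA1 and ABCG1 and MYLIP, a ubiquitin ligase that marks lipoprotein receptors for degradation. Macrophages take up much lipid from debris and lipoproteins and are known for LXR-driven efflux, whereas dividing cells need new membrane lipid.

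Promoter sequences are shown for 5 genes that differ in role and in their behaviour below: SREBF2 as the master sterol factor, SCD and MYLIP as an SREBP and an LXR target, ABCA1 as an efflux pump, and PMVK as the only sterol enzyme that rose in CTCF-depleted cells. Each is the stretch of 250 bases before the RefSeq transcription start on GRCh38.p14, written in the direction of the gene. Capitals mark exact matches to TCACNCCAC, a form of the sterol regulatory element, and to the CCAAT box, on either strand. A CCAAT box on the other strand reads ATTGG.
SREBF2, chr22:41832855-41833104, plus strand: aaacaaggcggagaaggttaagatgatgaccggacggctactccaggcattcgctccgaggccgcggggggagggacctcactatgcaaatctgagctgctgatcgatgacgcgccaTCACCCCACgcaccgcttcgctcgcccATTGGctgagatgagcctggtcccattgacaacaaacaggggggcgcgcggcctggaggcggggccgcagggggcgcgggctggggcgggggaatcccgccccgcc
SCD, chr10:100346983-100347232, plus strand: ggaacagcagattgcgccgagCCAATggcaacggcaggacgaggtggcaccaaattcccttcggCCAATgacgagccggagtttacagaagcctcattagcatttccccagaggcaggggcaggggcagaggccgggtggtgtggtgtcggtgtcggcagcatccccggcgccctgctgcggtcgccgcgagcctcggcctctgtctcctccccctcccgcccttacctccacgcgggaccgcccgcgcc
MYLIP, chr6:16128836-16129085, plus strand: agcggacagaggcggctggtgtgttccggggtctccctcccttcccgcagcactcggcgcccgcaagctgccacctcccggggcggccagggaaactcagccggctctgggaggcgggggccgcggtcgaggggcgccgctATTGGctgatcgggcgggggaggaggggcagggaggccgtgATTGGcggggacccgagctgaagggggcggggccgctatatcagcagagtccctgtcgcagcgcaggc
ABCA1, chr9:104928156-104928405, minus strand: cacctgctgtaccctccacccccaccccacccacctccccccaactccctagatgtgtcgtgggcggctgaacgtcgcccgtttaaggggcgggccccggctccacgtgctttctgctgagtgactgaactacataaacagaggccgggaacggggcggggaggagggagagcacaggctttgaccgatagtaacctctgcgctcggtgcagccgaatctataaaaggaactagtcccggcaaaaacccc
PMVK, chr1:154936720-154936969, minus strand: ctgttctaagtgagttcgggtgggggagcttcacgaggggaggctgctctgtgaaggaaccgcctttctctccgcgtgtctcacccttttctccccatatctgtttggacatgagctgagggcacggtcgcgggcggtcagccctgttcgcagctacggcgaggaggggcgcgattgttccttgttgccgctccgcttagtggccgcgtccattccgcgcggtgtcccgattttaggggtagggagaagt
By exact match, the SREBF2 window holds 1 TCACNCCAC element and 1 CCAAT box, and the SCD and MYLIP windows hold 2 CCAAT boxes each. The ABCA1 and PMVK windows hold 0 of either.

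RefSeq windows from 250 bases before to 50 bases after the start were at hand for 27 of the 32 genes, all except FDFT1, FASN, ABCG1, SQLE and ACAT2. CCAAT, bound by the factor NF-Y that acts beside SREBP, was found on either strand in 21 of the 27 windows (77.8%), and in 39.7% of the windows of all 27305 genes and 43.3% of those of 9963 tested genes. Among the 15 sterol synthesis windows 13 held it, and CYP51A1 and PMVK did not. GGGCGG, the core of the GC box bound by SP1, was found in 26 of the 27 windows (96.3%), against 48.3% over all genes and 75.2% over tested genes. The letters TCACNCCAC were found in 1 of the 27 (SREBF2), against 1.39% over all genes and 1.51% over tested genes. AGGTCA repeated in the same direction with a spacer of 4 bases is a form bound by LXR. Its exact letters were found in 0 of the 27 windows, against 0.0256% over all genes. Only exact letters were searched for, so that variant forms of these elements would be missed. A count of 0 therefore does not show that a promoter lacks a site for SREBP or LXR. No marked motifs share bases in the windows shown above, and a match is a description of the window only.

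Libraries held 9273470 to 12718780 counts, and levels are given as counts per 1000000 counts (CPM), scaled by the trimmed mean of M values (TMM). Replicates differed by more than counting noise, with a chi-square per degree of freedom of 1.71 to 2.69. Over all genes and 6 libraries the common biological coefficient of variation was 3.96%. The summed level of 8 macrophage markers went from 96.2 to 107 CPM at 0 h to between 5650.1 and 6497 CPM in the 4 libraries at 96 h, and that of 8 B cell markers from 2432 to 2447 CPM down to between 421 and 452 CPM. The T cell gene CD3D, the erythroid genes HBA1 and HBB and the epithelial gene EPCAM had 0 counts in every library, and CD3E and KRT8 had at most 1. Other genes of these lists were detected: CD2, found on T and NK cells and some myeloid cells, had 0 and 0 counts at 0 h, 40 and 38 in control and 54 and 55 in CTCF-depleted cells. NCAM1 had 37.0 and 33.5 CPM at 0 h and 81.4 to 94.1 CPM at 96 h, and COL1A1 had 10.4 and 11.5 CPM at 0 h and 2.78 to 3.97 CPM at 96 h. The part of cells of other types in the results was not tested. In these bulk libraries fewer cells of a type and less RNA per cell cannot be told apart.

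**Figure D1:**
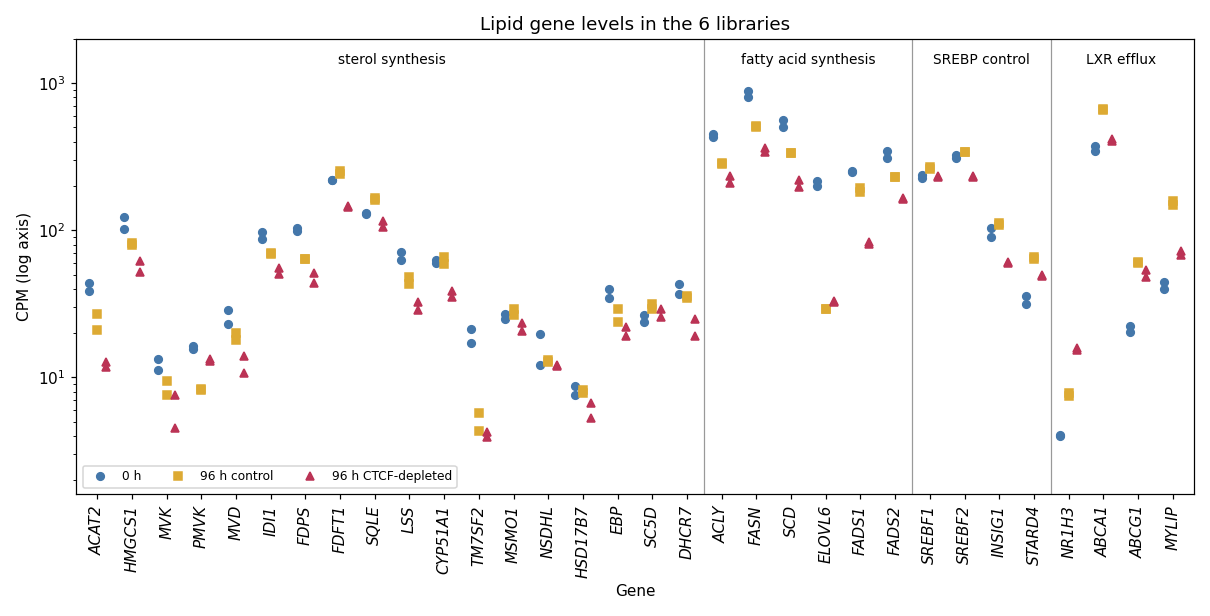
Level of each of the 32 genes in each of the 6 libraries, in CPM on a log axis, with the genes in their 4 groups along the horizontal axis and 1 point per library (circles 0 h, squares 96 h control, triangles 96 h CTCF-depleted). In 28 of the 32 genes both CTCF-depleted points lie below both control points, and in PMVK, ELOVL6 and NR1H3 both lie above.

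From 0 h to the 96 h control, 5 of the 32 genes rose and 8 fell at an adjusted p below 0.01 and a log2 fold change beyond 0.6 in size, the thresholds of the study, and 19 passed neither. Of all genes tested, 25.4% rose and 22.9% fell by the same rule, and the counts among the 32 genes were near or below that background. Adjusted p-values are from edgeR's quasi-likelihood test with the Benjamini-Hochberg method over all genes tested, and log2 fold changes are given with their standard error (SE) over 2 libraries per group. The groups of genes went different ways: all 4 efflux genes and the cholesterol transporter STARD4 rose, and the 8 that fell were 4 of 18 sterol enzymes and 4 of 6 fatty acid enzymes. The median log2 fold change was 1.21 for the efflux genes, 0.19 for the SREBP genes, -0.42 for the sterol enzymes and -0.65 for the fatty acid enzymes, beside 0.02 for all genes tested. The median of the SREBP genes was 0.07 without 0 h replicate 2. Without 0 h replicate 2 the count of lower genes was 14 in place of 8, through 5 more sterol enzymes (HMGCS1, MVD, LSS, NSDHL and EBP) and FADS2.

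**Figure D2:**
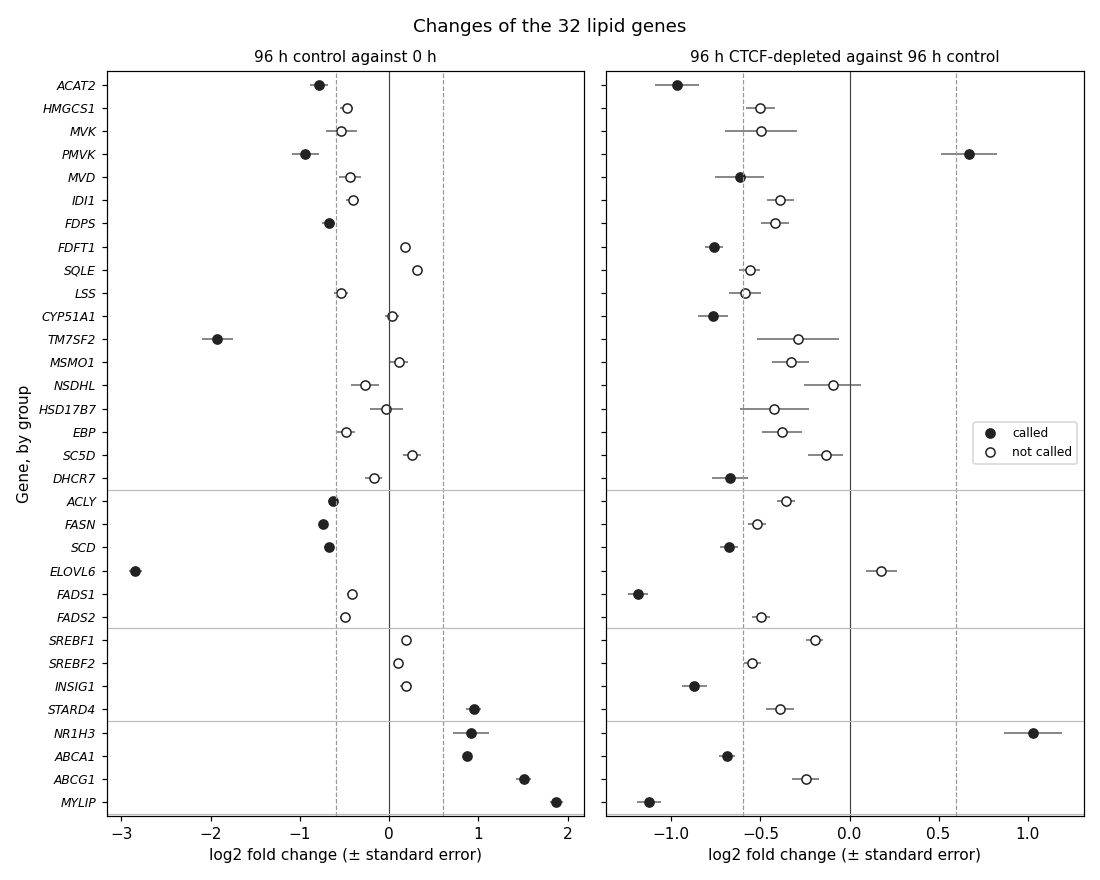
Log2 fold change of each of the 32 genes (horizontal axis) at 96 h control against 0 h (left) and at 96 h CTCF-depleted against 96 h control (right). Points are estimates over 2 libraries per group, bars are ± 1 standard error, dashed lines mark -0.6 and 0.6, and filled points passed both thresholds. On the right, 29 of 32 points lie below 0, while on the left the efflux genes lie above 0 and the fatty acid enzymes below.

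CTCF-depleted cells at 96 h had lower levels of most of these genes than control cells at 96 h: 10 of the 32 fell and 2 rose, and the log2 fold change was below 0 in 29 of 32. Over all genes tested 7.03% fell and 5.41% rose, and 54.2% had a log2 fold change below 0. The median was -0.50 for the 32 genes and -0.03 for all genes tested. Both CTCF-depleted libraries lay below both control libraries in 28 of the 32 genes and above them in 3, where 37.8% and 30.1% of all genes tested did. With the adjusted p alone and no minimum change, 24 were lower and 2 higher, beside 17.4% and 12.0% of all genes. Most of the 32 therefore shifted by less than the threshold of 0.6, and the medians of the 4 groups were alike in size, at -0.46 for sterol enzymes, -0.51 for fatty acid enzymes, -0.47 for SREBP genes and -0.47 for efflux genes. DESeq2, used as a second test, called 9 lower and 1 higher.

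Among the 18 sterol enzymes, 4 fell and 0 rose from 0 h to the 96 h control, beside 22.9% and 25.4% of all genes tested. With CTCF depletion 5 fell and 1 rose, beside 7.03% and 5.41%. From 0 h to control 3 of the 18 were higher at an unadjusted p below 0.05, and DESeq2 called 0 higher. The enzymes up to the isoprenoids come first. ACAT2, which joins acetyl-CoA units at the start of the pathway, had 44.0 and 38.9 CPM at 0 h, 26.8 and 21.0 in control and 12.7 and 11.8 in CTCF-depleted cells. The 3 groups did not overlap, and ACAT2 fell from 0 h to control (log2 fold change -0.78 ± 0.10, adjusted p = 6.81e-10) and again from control to CTCF-depleted (-0.97 ± 0.12, adjusted p = 2.77e-09). ACAT2 lies at chromosome 6, 159762045 to 159779112, plus strand on hg38 in GENCODE release 44 and shares 454 exonic bases with TCP1 on the opposite strand, which had 14883 counts over all libraries against 1741 for ACAT2. The strand setting of the counting is not stated, so that the reads of such a pair may not be separable. Opposite-strand exons also overlap for MVK (225 bases, MMAB), CYP51A1 (108 bases, AKAP9) and SREBF1 (556 bases, RAI1). HMGCS1, which makes the precursor of mevalonate, had 123 and 103 CPM at 0 h, 79.3 and 82.3 in control and 52.4 and 61.8 in CTCF-depleted cells. Its libraries followed the same order without overlap, with log2 fold changes of -0.48 ± 0.07 and -0.50 ± 0.08, both short of 0.6. MVK, the first of the mevalonate kinases, had 11.2 and 13.3 CPM at 0 h, 9.44 and 7.59 in control and 7.59 and 4.51 in CTCF-depleted cells. Its groups were also in that order, although the lowest control and the highest CTCF-depleted library were nearly equal, with log2 fold changes of -0.53 ± 0.18 and -0.50 ± 0.20 (adjusted p = 0.0450 for depletion), and the replicates of the depleted group lay far apart.

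PMVK, the kinase after MVK, was the 1 sterol enzyme with a log2 fold change above 0 after depletion. It had 16.3 and 15.5 CPM at 0 h, 8.30 and 8.24 in control and 13.3 and 13.0 in CTCF-depleted cells. It was lowest in the control libraries, fell from 0 h to control (-0.94 ± 0.15, adjusted p = 1.64e-07) and rose with CTCF depletion (0.67 ± 0.16, adjusted p = 4.02e-04), to 1.59 times the control level. DESeq2 gave it an adjusted p of 0.0161 for depletion, short of the threshold. The test against a minimum change of 0.6 (edgeR's glmTreat) gave an adjusted p of 0.934. PMVK lies at chromosome 1, 154924740 to 154936719, minus strand. A window of 100 kb on either side, chosen after these values were seen, held 7 tested genes. With depletion 0 of the 7 were called by edgeR and 0 by DESeq2, and 4 had an unadjusted p below 0.05. Over all genes tested edgeR called 5.41% higher and 7.03% lower, so that 0 of 7 is near the background. Among the 7, PBXIP1 was at 0.09, PYGO2 at 0.29 and CKS1B at -0.51 log2 fold change. MVD, which makes the first isoprenoid unit, had 28.7 and 23.2 CPM at 0 h, 19.9 and 18.0 in control and 10.7 and 14.0 in CTCF-depleted cells. The groups did not overlap, and MVD fell with depletion (-0.62 ± 0.14, adjusted p = 2.19e-04) just past the threshold. That call was lost with DESeq2, with no filter on low counts (-0.58), in a fit of the 4 libraries at 96 h alone (-0.58), in the test against a minimum change of 0.6, and without either first replicate of the 96 h groups (log2 fold change -0.50 without control replicate 1 and -0.40 without CTCF-depleted replicate 1).

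IDI1, which interconverts the isoprenoid units, had 96.9 and 87.6 CPM at 0 h, 69.8 and 68.7 in control and 50.5 and 55.4 in CTCF-depleted cells. FDPS, which joins them to farnesyl diphosphate, had 104 and 99.4 CPM at 0 h, 63.5 and 63.8 in control and 51.5 and 43.8 in CTCF-depleted cells. Both were highest at 0 h and lowest after depletion without overlap, and only FDPS passed both thresholds, from 0 h to control (-0.67 ± 0.07, adjusted p = 4.83e-12). The log2 fold changes with depletion were -0.39 ± 0.08 for IDI1 and -0.42 ± 0.08 for FDPS. FDFT1, squalene synthase, stands at the branch where carbon is committed to sterols. It had 219 and 218 CPM at 0 h, 242 and 252 in control and 147 and 145 in CTCF-depleted cells. It was slightly higher in control than at 0 h (0.18 ± 0.05) and lowest after depletion, where it fell by a factor of 1.69 (-0.76 ± 0.05, adjusted p = 2.73e-19). SQLE, squalene epoxidase, had 131 and 129.8 CPM at 0 h, 159 and 166 in control and 115 and 106 in CTCF-depleted cells. Its pattern was that of FDFT1, with the control libraries highest, and its log2 fold changes of 0.32 ± 0.06 and -0.56 ± 0.06 stayed within 0.6 in size. LSS, which cyclises epoxysqualene to lanosterol, had 71.0 and 62.7 CPM at 0 h, 48.3 and 43.2 in control and 32.4 and 28.6 in CTCF-depleted cells, with log2 fold changes of -0.54 ± 0.08 and -0.58 ± 0.09. LSS lay close to the threshold for depletion and passed it without control replicate 2 (-0.63) or CTCF-depleted replicate 1 (-0.64), as MVK did without CTCF-depleted replicate 1 (-0.88). MVK was at -0.14 without CTCF-depleted replicate 2 and -0.30 without control replicate 1, so that its value with depletion rests on single libraries.

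Of the enzymes that turn lanosterol into cholesterol, the first and the last fell with depletion. CYP51A1, which removes a methyl group from lanosterol, had 62.9 and 59.6 CPM at 0 h, 66.2 and 59.2 in control and 38.5 and 35.2 in CTCF-depleted cells. The 0 h and control libraries overlapped, both CTCF-depleted libraries lay well below them, and CYP51A1 fell with depletion (-0.77 ± 0.08, adjusted p = 2.56e-11). DHCR7, the reductase of the last step, had 42.8 and 37.0 CPM at 0 h, 34.7 and 35.7 in control and 25.1 and 19.1 in CTCF-depleted cells. It fell with depletion (-0.67 ± 0.10, adjusted p = 2.25e-07), a call that was lost without CTCF-depleted replicate 2 (log2 fold change -0.46). TM7SF2, a sterol reductase of the middle steps, had 21.2 and 17.3 CPM at 0 h, 4.32 and 5.74 in control and 4.26 and 3.96 in CTCF-depleted cells. Nearly all of its change came from 0 h to control, where it fell by a factor of 3.80 (-1.92 ± 0.17, adjusted p = 6.27e-15), the largest fall among the sterol enzymes. With depletion it was -0.29 ± 0.23 on the log2 scale (adjusted p = 0.345).

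The remaining enzymes of this stretch passed neither comparison. MSMO1, a methyl sterol oxidase, had 24.8 and 26.9 CPM at 0 h, 26.7 and 29.2 in control and 23.5 and 20.8 in CTCF-depleted cells. NSDHL, which acts with it in demethylation, had 19.7 and 12.2 CPM at 0 h, 12.7 and 13.2 in control and 12.2 and 12.0 in CTCF-depleted cells, and its 0 h replicates were further apart than the groups. HSD17B7, the ketoreductase of the same complex, had 7.53 and 8.78 CPM at 0 h, 8.21 and 7.87 in control and 5.28 and 6.72 in CTCF-depleted cells, and it has a near-identical pseudogene copy that can take some of its reads. These 3 had log2 fold changes with depletion of -0.33 ± 0.10, -0.10 ± 0.16 and -0.42 ± 0.20, and only MSMO1 had an adjusted p below 0.01 (0.00857). EBP, a sterol isomerase, had 40.1 and 34.4 CPM at 0 h, 29.2 and 23.8 in control and 19.0 and 21.8 in CTCF-depleted cells. SC5D, a sterol desaturase, had 23.8 and 26.4 CPM at 0 h, 29.0 and 31.3 in control and 29.2 and 25.8 in CTCF-depleted cells, and it was the 1 gene of the 32 whose control and CTCF-depleted libraries overlapped. Their log2 fold changes with depletion were -0.38 ± 0.11 and -0.13 ± 0.10.

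The fatty acid enzymes had the highest summed level of the 4 groups at 0 h, and all 6 enzymes were lower in control than at 0 h without overlap. Of all 14758 genes tested, 6323 were lower and 6476 higher without overlap in the same comparison. In that comparison 4 fell and 0 rose, beside 22.9% and 25.4% of all genes tested. At an unadjusted p below 0.05 or by DESeq2, 0 of the 6 were higher. ACLY, which supplies acetyl-CoA from citrate, had 452 and 429 CPM at 0 h, 282 and 286 in control and 233 and 210.0 in CTCF-depleted cells. FASN, the fatty acid synthase, had 884 and 808 CPM at 0 h, 501 and 511 in control and 363 and 343 in CTCF-depleted cells. SCD, which introduces the first double bond, had 564 and 506 CPM at 0 h, 336 and 333 in control and 198 and 221 in CTCF-depleted cells. All 3 were highest at 0 h and lowest after depletion, and all 3 fell from 0 h to control, with log2 fold changes of -0.63 ± 0.05, -0.74 ± 0.05 and -0.68 ± 0.05 (highest adjusted p = 6.58e-18). With depletion SCD fell further (-0.68 ± 0.05, adjusted p = 1.42e-16), and the call was lost without CTCF-depleted replicate 1 (-0.56). ACLY (-0.36 ± 0.05) and FASN (-0.52 ± 0.05) stayed within 0.6 in size.

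ELOVL6, which elongates saturated fatty acids, had 199.8 and 217 CPM at 0 h, 29.1 and 29.0 in control and 32.7 and 33.1 in CTCF-depleted cells. The 0 h libraries stood far above the other 4, and the fall to control by a factor of 7.18 (-2.84 ± 0.07, adjusted p = 7.19e-40) was the largest of the 32 genes. Depletion left it at 0.18 ± 0.09 (adjusted p = 0.104), the 1 fatty acid enzyme above 0, and this value passed neither threshold. FADS1, a desaturase of polyunsaturated fatty acids, had 253 and 247 CPM at 0 h, 181 and 193 in control and 80.7 and 83.6 in CTCF-depleted cells. It fell with depletion by a factor of 2.28 (-1.19 ± 0.06, adjusted p = 3.33e-25), the largest fall of the 32 genes in that comparison, after -0.42 ± 0.05 from 0 h to control. FADS2, the desaturase encoded beside it, had 343 and 308 CPM at 0 h, 230.2 and 231 in control and 162 and 165 in CTCF-depleted cells. It had -0.50 ± 0.05 and -0.50 ± 0.05, a smaller difference with depletion than FADS1, and that contrast between the 2 genes was not tested. FADS1 lies at chromosome 11, 61799627 to 61829318, minus strand, shares 490 exonic bases with FADS2 on the opposite strand, and had 8 tested genes within 100 kb, of which MYRF (-0.76) was called with depletion by edgeR and not by DESeq2, while FEN1 was at -0.38 and TMEM258 at -0.18. With depletion 2 fatty acid enzymes fell and 0 rose, beside 7.03% and 5.41% of all genes tested. Of the fatty acid enzymes 1 (ELOVL6) was higher at an unadjusted p below 0.05 and 0 by DESeq2.

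Of the SREBP genes, 1 rose and 0 fell from 0 h to control, beside 25.4% and 22.9% of all genes tested. In that comparison 0 were lower at an unadjusted p below 0.05 and 0 by DESeq2. With depletion 1 fell and 0 rose, beside 7.03% and 5.41%, with 0 higher at an unadjusted p below 0.05 and 0 by DESeq2. SREBF1, whose proteins favour fatty acid genes, had 239 and 225 CPM at 0 h, 262 and 268 in control and 233 and 229 in CTCF-depleted cells. SREBF2, whose protein favours sterol genes, had 325 and 308 CPM at 0 h, 339 and 341 in control and 234 and 231 in CTCF-depleted cells. Both factors kept transcript levels within 0.6 on the log2 scale throughout. From 0 h to control they were at 0.19 ± 0.05 and 0.10 ± 0.05, and with depletion at -0.19 ± 0.05 and -0.55 ± 0.05, the second with an adjusted p of 1.09e-14. INSIG1, the sterol sensor that retains SREBP and is itself an SREBP target, had 104 and 90.2 CPM at 0 h, 112 and 108 in control and 60.6 and 59.9 in CTCF-depleted cells. It was highest in control by a small margin (0.19 ± 0.07) and fell with depletion by a factor of 1.83 (-0.87 ± 0.07, adjusted p = 1.66e-15), with both CTCF-depleted libraries below the other 4. STARD4, which carries cholesterol between membranes, had 35.9 and 31.5 CPM at 0 h, 65.5 and 63.5 in control and 49.3 and 49.2 in CTCF-depleted cells. It rose from 0 h to control (0.95 ± 0.08, adjusted p = 1.33e-15), and the CTCF-depleted libraries lay between (-0.39 ± 0.08 against control).

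The 4 efflux genes rose together from 0 h to control and 0 fell, beside 25.4% and 22.9% of all genes tested. At an unadjusted p below 0.05 or by DESeq2, 0 of the 4 genes were lower. With depletion they split. MYLIP had 44.4 and 39.7 CPM at 0 h, 157 and 149 in control and 68.1 and 71.9 in CTCF-depleted cells. It rose by a factor of 3.66 (1.87 ± 0.07, adjusted p = 2.71e-31) and fell with depletion by a factor of 2.18 (-1.13 ± 0.07, adjusted p = 6.18e-21), to a level still above both 0 h libraries. ABCA1, which loads cholesterol onto apolipoprotein acceptors, had 348 and 372 CPM at 0 h, 657 and 664 in control and 417 and 403 in CTCF-depleted cells. It rose (0.87 ± 0.05, adjusted p = 8.01e-25) and fell (-0.69 ± 0.05, adjusted p = 4.73e-19), and the CTCF-depleted libraries were again slightly above those at 0 h. ABCG1, which passes cholesterol to mature lipoproteins, had 22.2 and 20.5 CPM at 0 h, 59.6 and 61.0 in control and 53.3 and 48.3 in CTCF-depleted cells. It rose by 1.51 ± 0.09 and was at -0.25 ± 0.08 with depletion (adjusted p = 0.00830), within 0.6 in size.

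NR1H3 encodes LXR alpha, a receptor known to turn on the other 3, and it was the exception in this group. It had 4.02 and 4.05 CPM at 0 h, 7.77 and 7.50 in control and 15.9 and 15.3 in CTCF-depleted cells. The 3 groups rose in order without overlap, by 0.92 ± 0.20, adjusted p = 6.27e-05, from 0 h to control and by 1.03 ± 0.16, adjusted p = 3.98e-07, from control to CTCF-depleted. In CTCF-depleted cells the NR1H3 transcript was thus 2.04 times the control level, while the LXR targets ABCA1 and MYLIP had fallen. NR1H2, which encodes the other receptor, LXR beta, had 39.3 and 43.6 CPM in control and 46.4 and 41.6 in CTCF-depleted cells. It was the more abundant of the 2 in CPM, its libraries overlapped, and it passed neither threshold with depletion (0.09 ± 0.08, adjusted p = 0.434). NR1H3 lies at chromosome 11, 47248300 to 47269033, plus strand, and its exons share 189 bases with ACP2 on the opposite strand, which was at -0.09 with depletion. Of 7 tested genes within 100 kb, 0 were called with depletion by edgeR and 0 by DESeq2, and 5 had an unadjusted p below 0.05. Over all genes tested edgeR called 5.41% higher and 7.03% lower, so that 0 of 7 is near the background. SPI1, which encodes the myeloid factor PU.1, was at -0.25, MADD at -0.25 and DDB2 at -0.45. Other genes of the 32 differed in this, with 2 called neighbours each for FASN and SREBF2 and 0 of 10 for TM7SF2. NR1H3 kept its call with depletion under each alternative except the test against a minimum change of 0.6, in which 0 of the 32 genes were higher and 4 lower.

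The levels were also summed over each group of genes, on the CPM scale. The 18 sterol enzymes summed to 1088 and 1014 at 0 h, 938 and 937 in control and 650.1 and 628 in CTCF-depleted cells. The 6 fatty acid enzymes summed to 2696 and 2515 at 0 h, 1559 and 1583 in control and 1069.7 and 1054 in CTCF-depleted cells. Both sums were highest at 0 h and lowest after depletion. The 4 SREBP genes summed to 704 and 655 at 0 h, 778 and 780.1 in control and 577 and 569.7 in CTCF-depleted cells, and the 4 efflux genes to 418 and 436 at 0 h, 881 and 881 in control and 555 and 539 in CTCF-depleted cells. Here the control libraries were highest, and the ratio of control to 0 h was 0.892 for sterol enzymes, 0.603 for fatty acid enzymes, 1.15 for SREBP genes and 2.06 for efflux genes. The ratio of CTCF-depleted to control was 0.682, 0.676, 0.736 and 0.620 in the same order, in each case with no overlap between the libraries. A sum is dominated by its most abundant genes, such as FASN and ABCA1.

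**Figure D3:**
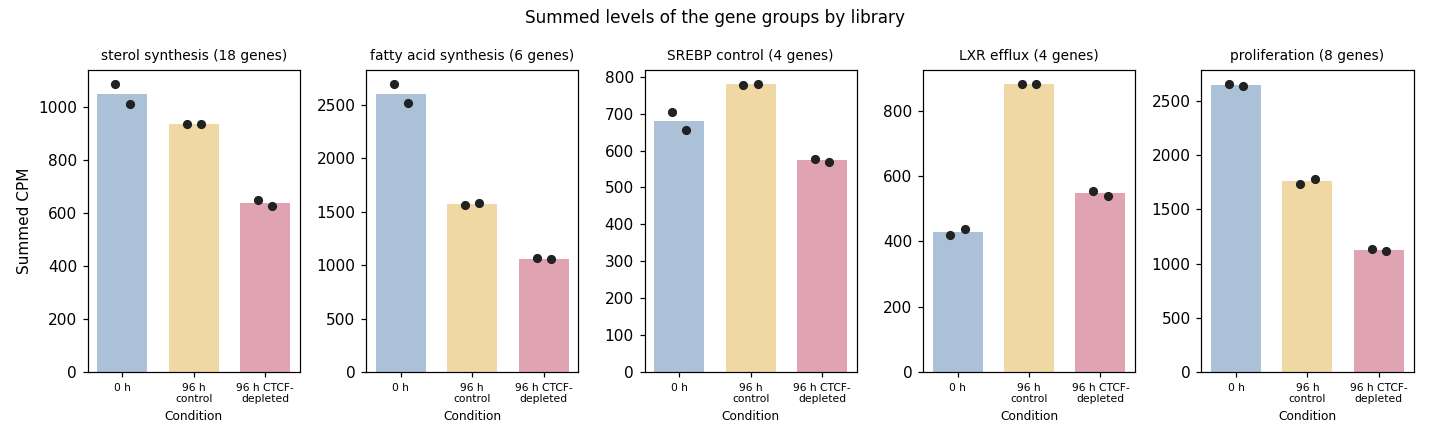
Summed CPM of the 4 gene groups and of 8 proliferation markers in each library, with 1 point per library and bars at the mean of 2 libraries in each condition. The CTCF-depleted bars are below the control bars in all 5 panels, and the proliferation markers decline in both steps.

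The summed level of proliferation markers was lower in each step, as were the sums of the sterol and fatty acid enzymes, whereas the SREBP and efflux sums were highest in control. The 8 markers, MKI67, TOP2A, CCNB1, CDK1, TYMS, MCM2, MCM5 and PCNA, summed to 2658 and 2639 at 0 h, 1738 and 1782 in control and 1135 and 1118 in CTCF-depleted cells. All 8 had a log2 fold change below 0 in both comparisons. From 0 h to control 6 fell (median -0.86), beside 22.9% of all genes tested. With depletion 5 fell (median -0.66), beside 7.03%. The part of this decline in the lower lipid enzyme levels was not tested. The 8 macrophage markers did not decline together with depletion, with 1 higher, 1 lower and a median of 0.03, and the 8 B cell markers had 1 higher, 1 lower and a median of -0.17.

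Set against 0 h, the medians of all 4 groups of genes were lower in CTCF-depleted than in control cells. This comparison shares its libraries with the other comparisons and is given side by side with them only. In CTCF-depleted cells 18 of 32 genes were lower and 3 higher than at 0 h, where 25.2% and 27.2% of all genes tested were lower and higher. The 18 were 11 sterol enzymes, all 6 fatty acid enzymes and INSIG1, and the 3 were NR1H3, ABCG1 and MYLIP. INSIG1 was at -0.68 ± 0.07 and lost its call without 0 h replicate 1 (-0.56). The median log2 fold change was -0.82 for sterol enzymes against -0.42 in the control cells, -1.31 against -0.65 for fatty acid enzymes, -0.22 against 0.19 for SREBP genes and 1.00 against 1.21 for efflux genes. NR1H3 was at 1.95 ± 0.18 in CTCF-depleted and 0.92 ± 0.20 in control cells, ABCG1 at 1.26 ± 0.09 and 1.51 ± 0.09, MYLIP at 0.74 ± 0.08 and 1.87 ± 0.07 and ABCA1 at 0.19 ± 0.05 and 0.87 ± 0.05. ELOVL6, TM7SF2 and ACAT2 were the lowest in CTCF-depleted cells, at -2.67 ± 0.07, -2.21 ± 0.18 and -1.75 ± 0.11.

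A further list of lipid handling genes was described in the same way. Of 48 listed genes 43 were tested, and with depletion 2 were higher and 3 lower, with a median of -0.06. Over all genes tested 5.41% were higher and 7.03% lower with depletion, so that these counts were near the background. From 0 h to control 14 were higher and 6 lower, with a median of 0.33, beside 25.4% and 22.9% of all genes tested. The 4 with the smallest adjusted p among those that rose were ACSL1, which activates fatty acids, at 4.94 ± 0.06, LIPA, the lysosomal lipase that frees cholesterol from esters, at 2.64 ± 0.07, ERLIN1, a membrane protein of the sterol-sensing machinery, at 1.72 ± 0.07, and RXRA, the partner receptor of LXR, at 1.66 ± 0.07. Those that fell included TMEM97, a regulator of NPC1, at -2.17 ± 0.09, the elongase ELOVL5 at -0.86 ± 0.06 and RNF145, a sterol-responsive ubiquitin ligase, at -0.90 ± 0.07. Genes of lysosomal cholesterol handling were called in both directions after depletion. NPC1, the transporter that moves cholesterol out of late endosomes, had 54.9 and 53.6 CPM at 0 h, 70.4 and 66.1 in control and 124 and 117 in CTCF-depleted cells, and it rose (0.82 ± 0.07, adjusted p = 5.24e-15). LIPA had 31.0 and 32.7 CPM at 0 h, 199 and 199 in control and 98.0 and 90.6 in CTCF-depleted cells, and it fell (-1.07 ± 0.06, adjusted p = 5.05e-22) to a level far above that at 0 h.

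LPCAT3 is an LXR target that remodels phospholipids. It had 40.5 and 38.0 CPM at 0 h, 51.1 and 55.7 in control and 84.9 and 78.0 in CTCF-depleted cells. LPCAT3 rose with depletion (0.61 ± 0.08, adjusted p = 2.01e-09) just past the threshold. Leaving out 1 library at a time gave 0.58 at the lowest, short of 0.6. PLTP, another LXR target, had 8.25 and 7.13 CPM at 0 h, 7.77 and 6.67 in control and 2.96 and 3.22 in CTCF-depleted cells, and it fell (-1.22 ± 0.23, adjusted p = 1.67e-05). The LXR targets measured therefore did not all move the same way after depletion. TMEM97 had 98.6 and 97.3 CPM at 0 h, 19.8 and 23.7 in control and 10.0 and 13.6 in CTCF-depleted cells, with the CTCF-depleted libraries lowest, and it fell in both steps (-0.88 ± 0.12, adjusted p = 2.35e-08 for depletion). NPC2, which hands cholesterol to NPC1, was at -0.08 ± 0.08 and SCAP, the escort of SREBP, at -0.14 ± 0.07 with depletion, and neither passed the test. CH25H, ME1, SMPDL3A and HACD3 were among the listed genes not tested.

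Per length of exon, the order of the genes changed with condition. In CPM per kilobase at 0 h, in control and in CTCF-depleted cells, SCD was at 102, 63.7 and 39.9, FASN at 90.7, 54.3 and 37.9 and ACLY at 84.6, 54.5 and 42.5. These 3 led at 0 h. ABCA1 was at 31.7, 58.2 and 36.2 and MYLIP at 13.7, 49.8 and 22.8, which placed ABCA1 behind SCD alone in control and MYLIP just below FASN. In control ABCA1 was followed by ACLY and FASN, which were nearly level there. FDFT1 was the most abundant sterol enzyme in each group, at 43.0, 48.6 and 28.7, followed by SQLE at 30.3, 37.7 and 25.6. MVK at 1.36, 0.945 and 0.671 and HSD17B7 at 1.70, 1.68 and 1.25 held the low end of the order in all 3 groups. TM7SF2 moved down towards them, at 5.65, 1.48 and 1.21, and NR1H3 moved up from the lowest place, at 0.890, 1.68 and 3.44. Neighbouring genes in this order often lay within the spread of their 2 replicates, as IDI1 and FDPS did after depletion at 12.3 and 12.8 CPM per kilobase.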

How the data were processed

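RNA-seq was measured in 6 libraries, 2 per group. The authors deposited raw counts per gene, without normalization: ribosomal RNA-depleted total RNA was prepared with a stranded kit, processed with nf-core/rnaseq, aligned to hg38 with STAR 2.6.1d and counted with featureCounts 2.0.6 over protein-coding exons (tools and versions per the submitters' processing notes and the study's methods). The annotation release and strand setting are not given in the sources used here. The table also lists non-coding genes, such as antisense and micro RNA genes, which the methods' wording on protein-coding exons does not cover.

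The analysis used edgeR 4.0.16 under R 4.3.3. The filter filterByExpr kept 14758 of 30017 genes, TMM gave the library scaling, and a quasi-likelihood model with condition as its only term was fitted to all 6 libraries (glmQLFit, glmQLFTest). Benjamini-Hochberg adjustment ran over all genes tested, and a gene was called at an adjusted p below 0.01 and a log2 fold change beyond 0.6 in size. Standard errors came from the fold change and its F statistic and include the spread between replicates. DESeq2 1.42.0 was an alternative. The fit was tested on simulated data. Positions, exon lengths and overlaps came from GENCODE release 44 and promoters from RefSeq. Summaries used Python 3.11.15 and pandas 2.3.3, and plots matplotlib 3.10.9.

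All 32 genes are named with their values in every library. Of the other pathway genes, those called are counted, and in each direction up to 4 of smallest adjusted p are named. NPC2, SCAP, NR1H2, the genes not tested and neighbouring genes were named after their values were seen. The genes and lists were chosen with earlier results of these data known. Some genes of these pathways are not reported here. Replicate numbers were not treated as pairs, because nothing in the labels ties them and the correlation of the deviations of same-numbered libraries was -0.0194, 0.0109 and -0.0294 for the 3 pairs of groups.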

Additional observations from a re-analysis of the deposited data

How the results depend on the processing

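The counts of genes called depended most on the threshold. With an adjusted p below 0.05 and no minimum change, 11 of the 32 genes were higher and 16 lower from 0 h to control, 25 were lower with depletion, and 5 were higher in CTCF-depleted cells than at 0 h. With a log2 fold change above 1 in size these were 2 and 2 from 0 h to control, 1 higher and 2 lower with depletion, and 10 lower against 0 h. Tested against a minimum change of 0.6 (glmTreat), 4 were lower from 0 h to control, and 0 were higher and 4 lower with depletion. DESeq2 called 1 higher with depletion. Leaving out 1 library at a time gave 5 higher and 8 to 14 lower from 0 h to control, 2 higher and 9 to 11 lower with depletion, and 3 to 4 higher and 17 to 19 lower against 0 h. The count of 14 came without 0 h replicate 2, where HMGCS1 (-0.65), MVD (-0.64), LSS (-0.67), NSDHL (-0.65), EBP (-0.64) and FADS2 (-0.62) were called too. The cause was not tested.

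With the replicate number as a block the counts were 5 higher and 8 lower, 2 and 10, and 3 and 18 in the 3 comparisons, and the block changed no call. Log2 fold changes near 0 changed sign. From 0 h to control, CYP51A1 was at -0.00158 with no filter on low counts, and leaving out 1 library at a time gave -0.084 to 0.12 for CYP51A1, -0.65 to 0.073 for NSDHL and -0.13 to 0.053 for HSD17B7. Against 0 h, SREBF1 was at 0.0013 with RLE scaling and 0.017 with at least 10 counts in every library, and leaving out 1 library at a time gave -0.0595 to 0.066 for SREBF1 and -0.71 (called, without 0 h replicate 2) to 0.012 for NSDHL. Scaling alternatives moved the median of all genes by less than 0.1. With 2 libraries per group, p-values rest on the spread shared over all genes, and MVK, TM7SF2, HSD17B7 and NR1H3 had the fewest counts.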
